A study of Mus musculus with 16 samples.

Results

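The Notch pathway was followed through 10 of its genes in P19CL6 cells. This line derives from mouse embryonal carcinoma, and its cells become cardiac muscle when cultured with dimethyl sulfoxide (DMSO). The genes were the receptors Notch1, Notch2 and Notch3, the ligands Dll1, Dll3 and Jag1, the glycosyltransferase Lfng, and the target genes Hes1, Hey1 and Hey2. They were chosen by gene symbol, among array probe sets that name a single gene, and each is represented by its probe set with the highest mean. They are 10 of the 10756 genes tested, and 16 of the 34945 probe sets that name a single gene measure them. All 10 passed the filter on low signal. Cultures were grown without DMSO and passaged every 48 h (growth, 3 arrays), or kept in medium with 1% DMSO, renewed every 48 h, for 4 days (3 arrays), 6 days (2), 8 days (3), 10 days (3) or 12 days (2). All 16 arrays come from this 1 line, and no further treatment or genetic change is named in the labels. No culture was kept for the same time without DMSO, so DMSO and time without passage cannot be told apart.

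Notch signalling passes between touching cells. A Delta or Jagged ligand on one cell binds a Notch receptor on its neighbour, the receptor is cut by Adam10 and then by gamma-secretase, and the freed intracellular part joins the DNA-binding protein Rbpj and a Mastermind coactivator to switch on Hes and Hey genes, which code for transcriptional repressors. In the embryo the pathway times the segmentation of presomitic mesoderm into somites, where Dll1, Dll3 and Lfng are expressed, and later acts in the developing heart, where Jag1, Notch1, Hey1 and Hey2 are expressed in endocardium or myocardium.

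Values are log2 signals, and a log2 signal of 4 was taken as the cutoff for a dim probe set. A gene was called higher or lower when limma's moderated test gave an adjusted p under 0.05, over all genes tested, and the difference was at least 1 log2. Group values are mean ± SD, differences are given ± SE, and values of single arrays follow the order of the replicate letters, A, B, C (B, C at day 6 and A, C at day 12). The number of arrays limits the precision. All 5 comparisons with growth share the same 3 growth arrays. The markers of the cells broadly followed the labels. The mean of 5 embryonal carcinoma markers was 11.03 to 11.44 on the growth arrays, 5.06 to 5.58 at day 8 and 6.08 to 6.70 at day 12. At day 12, 4 to 5 of them were still above the cutoff. That of 5 cardiac muscle markers was 2.85 to 3.29 in growth, 11.00 to 11.39 at day 10 and 12.40 to 12.51 at day 12, and 0 of 5 neural markers was above the cutoff on any array. One array stood apart. Day 8 replicate A correlated at 0.990 to 0.992 with the day 6 arrays, against 0.955 to 0.966 with day 8 replicates B and C, and its cardiac marker mean was 3.51, against 6.19 and 7.51 there. Results at day 8 are therefore also given without it.

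At day 4, 5 members were higher than in growth, Notch1, Dll1, Dll3, Hes1 and Hey1, and 0 were lower. At day 6 all 5 were lower than at day 4, and Hey2 was higher than in growth. At days 10 and 12 the members higher than in growth were Jag1, Hey1 and Hey2, with Notch1 at day 12. Notch1 and Hey1 were thus called at day 4 and again at day 12, Hes1 at days 4 and 6, and Dll1 and Dll3 at day 4 alone.

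The share of all genes called higher at day 4 was 13.3%, and the share called lower was 13.6%. At day 6, 2 members were higher, Hes1 and Hey2, where 14% of all genes were higher and 12.8% lower. At day 8, 1 member was higher, Hey2, where 16% of all genes were higher and 14.9% lower. Without day 8 replicate A, Jag1 was called higher too, and the shares of all genes were 17.4% and 16.1%. At day 10, 3 members were higher, where 18.6% of all genes were higher and 19.4% lower. At day 12, 4 members were higher, Notch1, Jag1, Hey1 and Hey2, where 22.5% of all genes were higher and 19.3% lower. No member was called lower than growth by limma at any day; at an unadjusted p under 0.05, 6, 3, 4, 5 and 5 of the 10 members differed from growth, in either direction, at days 4, 6, 8, 10 and 12. The median difference of the members from growth was 1.32 log2 at day 4, 0.73 at day 6, 0.16 at day 8, 0.14 at day 10 and 0.39 at day 12, while the median over all genes tested lay between -0.02 and 0.01. With values under 4 set to 4 the members' medians were 1.32, 0.48, 0.16, 0.14 and 0.39. In either direction, 50%, 20%, 10%, 30% and 40% of the members were called at days 4, 6, 8, 10 and 12, against 26.9%, 26.8%, 31%, 38% and 41.8% of all genes, so the number of members called was above that share at day 4 alone. Of those called at day 4, Dll1 and Dll3 had passed the filter on 4 arrays each, the day 4 arrays among them. The filter thus admitted them through that group, and the day 4 count is not free of it.

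**Figure D1:**
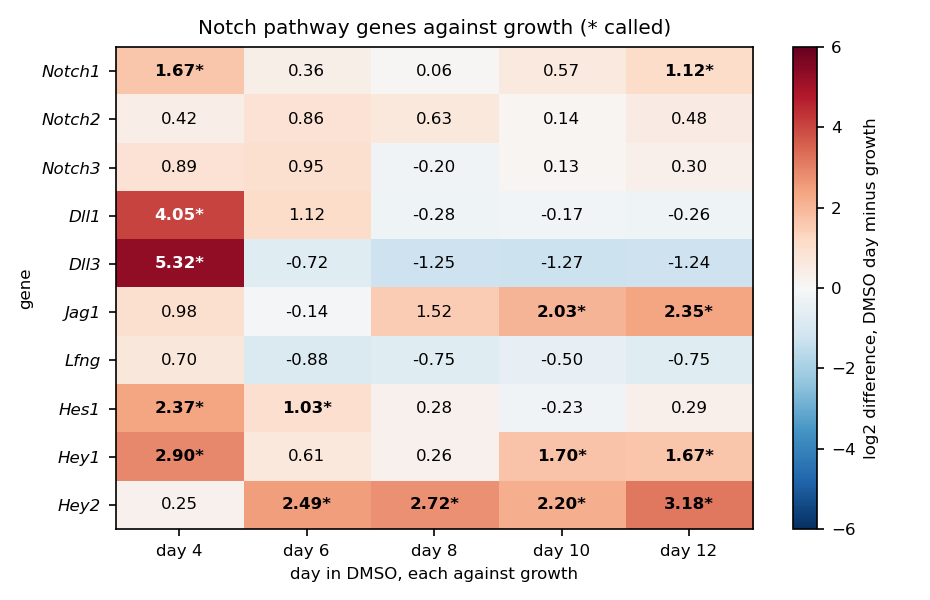
Log2 difference of each Notch gene (rows) between a DMSO day (columns) and growth, as colour and number, with calls in bold and starred. The starred cells are in 5 rows at day 4, in 2 at day 6, in 1 at day 8, in 3 at day 10 and in 4 at day 12, and all are positive. Differences from a group under the cutoff, such as those of Dll1, are fitted values and not bounds.

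Between consecutive days, most calls of members were from day 4 to day 6. At day 6, 5 members were lower than at day 4, Notch1, Dll1, Dll3, Hes1 and Hey1, where 2.58% of all genes were lower, and 1 was higher, Hey2, where 3.52% of all genes were higher. No member was called between day 6 and day 8, where 0% of all genes were higher and 0.0186% lower, and 2 members had an unadjusted p under 0.05. Without day 8 replicate A, Jag1 was called higher at day 8 than at day 6, where 3.77% of all genes were higher and 1.95% lower. From day 8 to day 10, 1 member was higher, Hey1, where 4.6% of all genes were higher and 3.21% lower. From day 10 to day 12, 0 members were called by limma and 2 had an unadjusted p under 0.05, where 2.78% of all genes were higher and 0.186% lower. At day 12, 5 members were lower than at day 4, Dll1, Dll3, Lfng, Hes1 and Hey1, where 13.2% of all genes were lower, and 1 was higher, Hey2, where 18.9% were higher. In both counts against day 4, Dll1 and Dll3 had passed the filter through their day 4 arrays, and so had Lfng, called at day 12. Neither count is free of the filter.

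**Figure D2:**
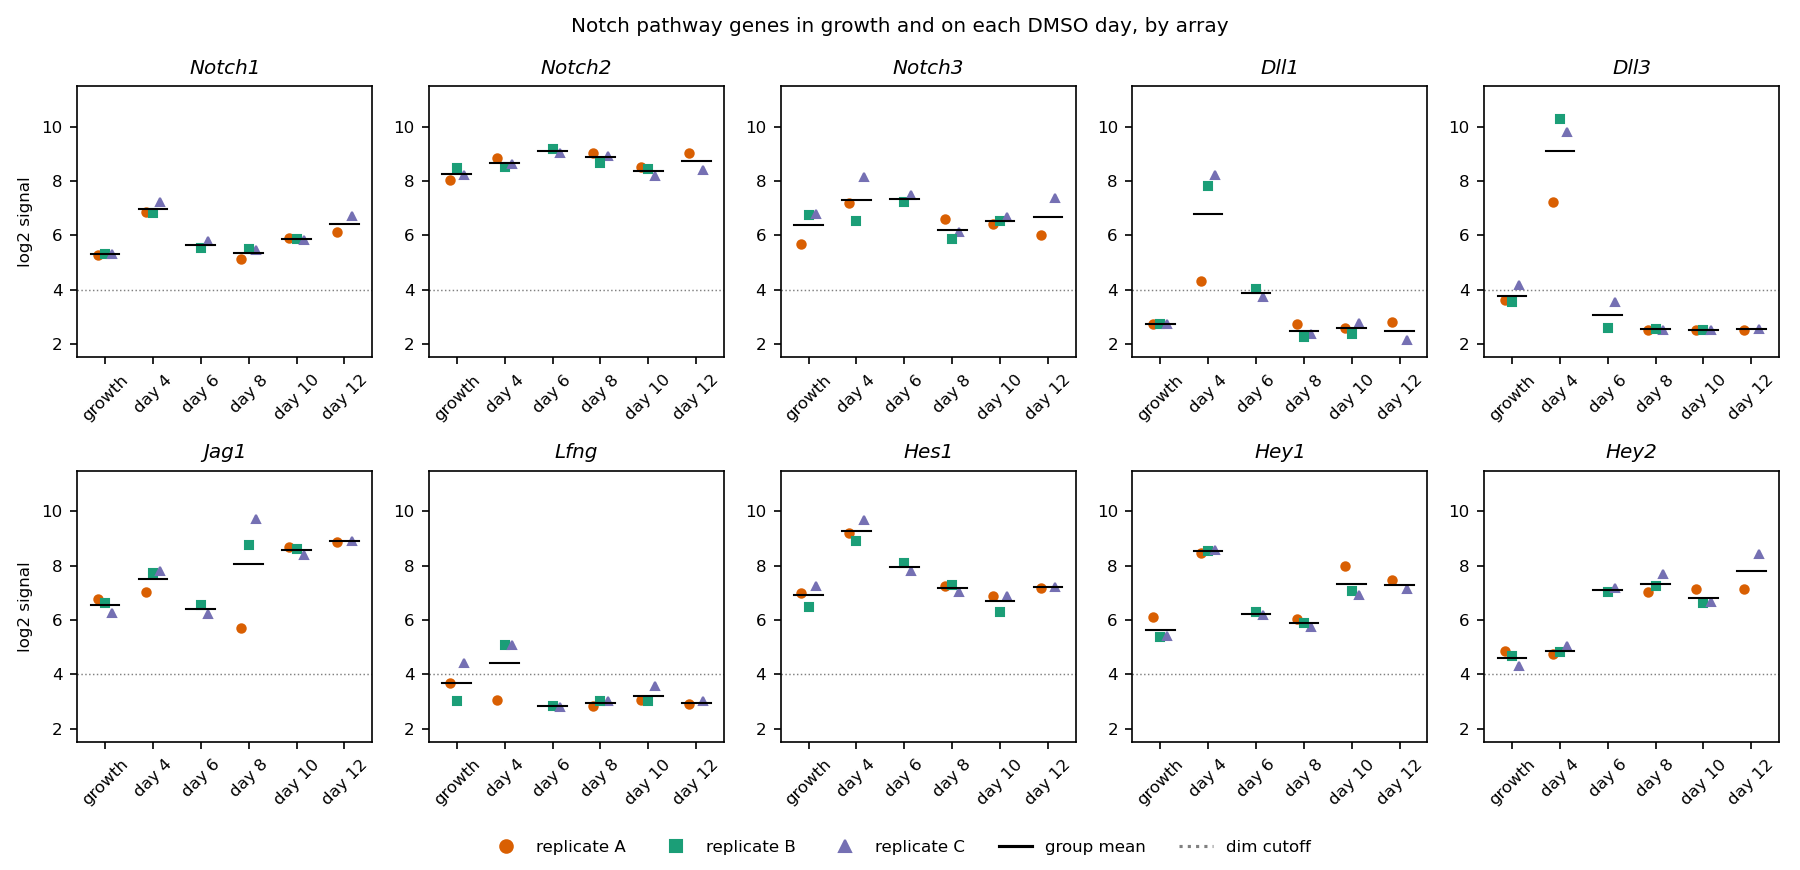
Log2 signal (vertical axis) of the 10 Notch genes on each of the 16 arrays, by group in time order, with replicates A, B and C as symbols, group means as bars and the dim cutoff of 4 as a dotted line. Dll1 and Dll3 stand high at day 4 alone, Hey1 at day 4 and again at days 10 and 12, and Hey2 from day 6 on.

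The Delta ligands had the largest differences among the members, both at day 4. Dll1, a transmembrane ligand that activates Notch receptors, was at 2.75, 2.74 and 2.75 on the growth arrays, at 4.33, 7.82 and 8.23 at day 4, and at 4.01 and 3.73 at day 6. From day 8 on its 8 arrays lay between 2.16 and 2.82, below the cutoff. Every day 4 array was above every growth array, and replicate A was far below the other two. The mean was 6.80 ± 2.14 at day 4, against 2.75 ± 0.00 in growth, a difference of at least 6.94-fold, since growth was dim (adjusted p = 0.000324). At day 6 Dll1 fell to 3.87 ± 0.20, against 6.80 ± 2.14 at day 4 (a difference of -2.93 ± 0.78 log2, adjusted p = 0.0338). That call was lost when day 4 replicate B or C or either day 6 array was left out, with differences of -2.41, -2.21, -3.07 and -2.79, and also with no filter on dim genes (adjusted p = 0.103) and with only those groups fitted (adjusted p = 0.248).

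Dll3, a divergent Delta protein that in mouse mostly acts within the cell that makes it and inhibits Notch signalling there, was at 3.60, 3.56 and 4.17 on the growth arrays, at 7.23, 10.27 and 9.79 at day 4 and at 2.58 and 3.54 at day 6. The 8 arrays of days 8 to 12 lay between 2.50 and 2.55. The mean was 9.10 ± 1.63 at day 4, against 3.78 ± 0.34 in growth, a difference of 5.32 ± 0.56 log2 (adjusted p = 4.48e-06). At day 6 it was at least 34.2-fold lower than at day 4 (adjusted p = 4.13e-05). Growth itself averaged under the cutoff, so no fold is given for any day against growth. With all arrays in 1 fit, none of the 3 differences of days 8 to 12 from growth was a call (adjusted p = 0.0633 to 0.0989). All 3 were called lower with only the groups compared in the fit (adjusted p = 0.00561 or less). With array weights that of day 8 was (adjusted p = 0.0341). Without day 4 replicate A all 3 were called lower (adjusted p = 0.00124 or less), and without day 4 replicate B those of days 8 and 10 were (adjusted p = 0.0409 and 0.0341), all on values near or below the cutoff.

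Dll1 and Dll3 passed the dim filter on 4 arrays each, the 3 of day 4 and 1 other, so they entered the test through the group in which they are high. The bases upstream of both are shown because these ligands were high together on the same arrays. They were read from RefSeq's promoter table of build GRCm38.p6, 250 bases before the start, for Dll1 at chr17:15376933-15377182 and for Dll3 at chr7:28301786-28302035, both on the minus strand.
Dll1: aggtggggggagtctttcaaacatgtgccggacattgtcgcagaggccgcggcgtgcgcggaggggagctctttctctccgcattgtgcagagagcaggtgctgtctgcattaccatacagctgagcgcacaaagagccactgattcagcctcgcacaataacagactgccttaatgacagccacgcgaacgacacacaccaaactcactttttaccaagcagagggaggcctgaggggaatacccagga
Dll3: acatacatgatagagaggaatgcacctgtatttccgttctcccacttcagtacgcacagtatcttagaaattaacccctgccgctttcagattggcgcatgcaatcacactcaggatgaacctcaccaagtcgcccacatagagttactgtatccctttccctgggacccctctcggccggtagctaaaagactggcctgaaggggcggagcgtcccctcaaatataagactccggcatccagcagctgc
4 motifs were searched on both strands, TGGGAA and the longer CGTGGGAA, which contains it, for Rbpj, and CACGTG and CACNAG for Hes and Hey proteins. Neither sequence holds any of them, so no letter is in capitals, and the upstream window of a second Dll1 start and that of Jag1 held none either. This says only that these letters are not in these windows. Over 32851 promoters of the same length, 21.6% hold TGGGAA, 0.636% CGTGGGAA, 6.02% CACGTG and 36.7% CACNAG.

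Day 4 replicate A was lower than replicates B and C in markers of several kinds as well, those of embryonal carcinoma included. The mean of the 5 embryonal carcinoma markers was 6.62, 8.05 and 8.67 on the day 4 arrays, and Tdgf1 among them, a co-receptor of Nodal signalling, was at 6.06, 9.84 and 10.16. Tbx6, a transcription factor of paraxial mesoderm, was at 6.47, 10.09 and 10.07 on the day 4 arrays, against 2.27 to 2.33 on the growth arrays. Msgn1, another, was at 1.96, 6.28 and 5.18 on the day 4 arrays, against 1.94 to 2.06 on the growth arrays. Over the 6 markers of paraxial mesoderm and somite the mean was 3.20, 4.56 and 4.68 at day 4, with 1, 2 and 3 of them above the cutoff, against 2.49 to 2.54 in growth with 0 above it. The mean of 3 primitive streak markers was 11.02 on replicate A and 12.24 and 12.33 on B and C. The part of these markers in the spread of Dll1 and Dll3 was not tested, and in bulk RNA fewer cells of a type and less RNA per cell cannot be told apart. Without replicate A the day 4 means were 8.03 ± 0.29 for Dll1 and 10.03 ± 0.34 for Dll3 (n = 2), at least 16.3-fold above growth for Dll1 and 6.25 log2 above it for Dll3. With that array left out, 13.5% of all genes were higher at day 4 and 13.6% lower.

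**Figure D3:**
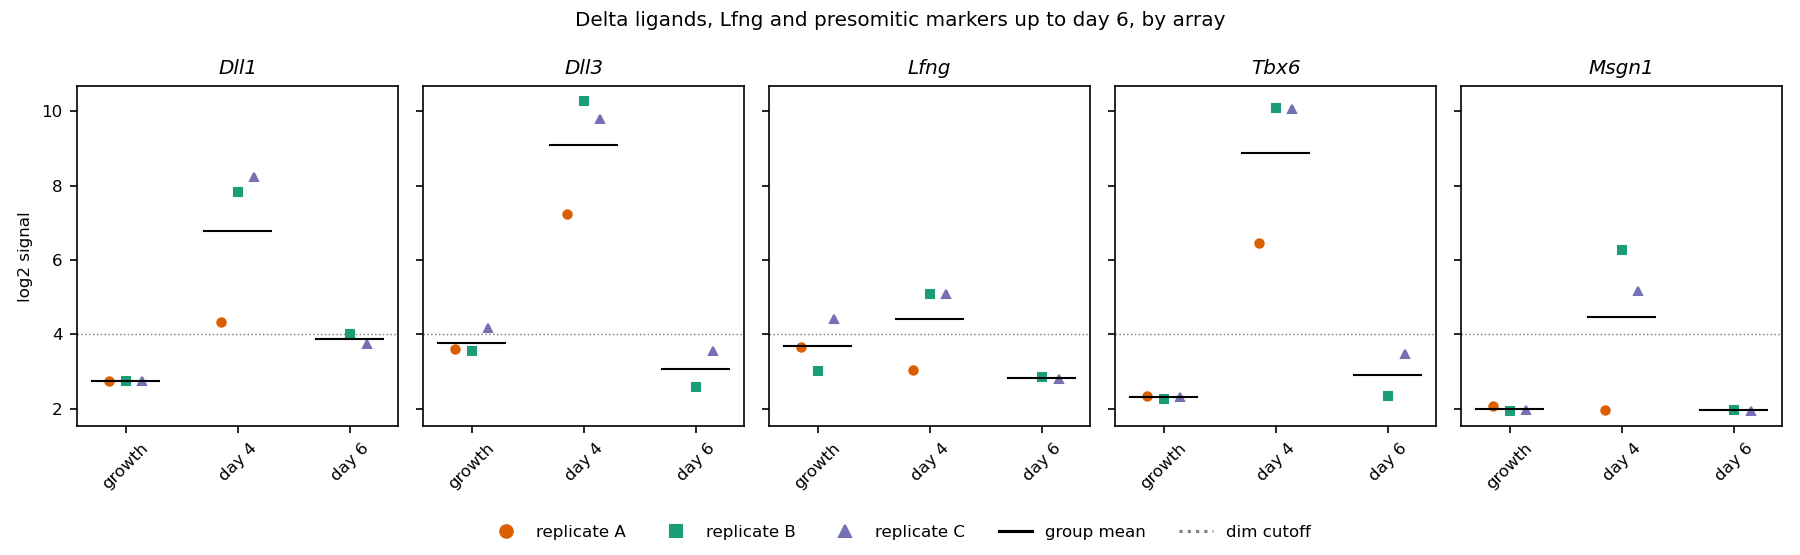
Log2 signal (vertical axis) of Dll1, Dll3, Lfng and the presomitic markers Tbx6 and Msgn1 in growth, at day 4 and at day 6, by array, with group means as bars and the dim cutoff as a dotted line. In all 5 panels replicate A is the lowest of the 3 day 4 arrays.

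Jag1, the Jagged-type ligand, was called at days 10 and 12. It was at 6.77, 6.63 and 6.25 on the growth arrays, at 7.03, 7.72 and 7.82 at day 4, at 6.57 and 6.24 at day 6, at 5.70, 8.78 and 9.73 at day 8, at 8.70, 8.62 and 8.41 at day 10 and at 8.89 and 8.91 at day 12. All arrays of days 10 and 12 were above all growth arrays, and the day 8 arrays fell on both sides, replicate A being the lowest of all 16. The mean was 8.58 ± 0.15 at day 10, against 6.55 ± 0.27 in growth (4.08-fold higher, adjusted p = 0.0212). At day 12 it was 8.90 ± 0.02, against the same growth mean (5.09-fold higher, adjusted p = 0.0176). At day 8 it was 8.07 ± 2.11, a difference of 1.52 ± 0.69 log2 from growth (adjusted p = 0.0795).

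Without day 8 replicate A, Jag1 was at 9.25 ± 0.67 at day 8 (n = 2), 2.71 ± 0.29 log2 above growth (adjusted p = 6.74e-06) and 2.85 ± 0.32 log2 above day 6 (adjusted p = 0.000134). In that fit, with its smaller spread, Jag1 was also lower at day 6 than at day 4, by -1.12 ± 0.29 log2 (adjusted p = 0.0285), and higher at day 12 than at day 4, by 1.37 ± 0.29 (adjusted p = 0.00161). The day 10 and 12 differences stayed at 2.03 and 2.35 log2, with adjusted p = 1.97e-05 and 1.49e-05. With all day 8 arrays kept, the day 10 call was lost without growth replicate C (1.88 log2) or day 10 replicate A or B (1.97 and 2.01), and the day 12 call without day 12 replicate A or C (2.36 and 2.34). With no filter on dim genes, and so more genes to adjust over, both calls were lost at the same differences (adjusted p = 0.0601 and 0.0504). With the mean of its probe sets the day 10 difference was 1.36 log2 (adjusted p = 0.0802) and no call.

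The other 2 Jag1 probe sets lay near the dim cutoff in growth. The brighter of them was at 3.92 to 3.99 on the growth arrays, and at 6.72, 4.51 and 5.21 at day 10 and 6.48 and 5.47 at day 12. Since growth was dim, it was at least 2.79-fold higher at day 10 (adjusted p = 0.09, no call) and at least 3.93-fold higher at day 12 (adjusted p = 0.0477). The dimmer one differed from growth by 0.51 log2 at day 10 (adjusted p = 0.483) and by 0.99 log2 at day 12 (adjusted p = 0.21). On both, day 8 replicate A was below replicates B and C, at 3.21 against 5.64 and 6.80 on the first and at 2.57 against 4.53 and 5.61 on the second. The mean of 6 endothelial markers, a cell type that expresses Jag1 in the embryo, was 3.18 to 4.71 at day 8, 4.17 to 5.18 at day 10 and 4.70 to 4.96 at day 12, against 2.48 to 2.77 in growth. That of 4 smooth muscle markers was 4.77 to 7.09, 7.66 to 7.88 and 8.75 to 8.93 on those days, against 3.93 to 4.46 in growth. Of the 6 endothelial markers 1 to 4 were above the cutoff at day 8, 2 to 5 at day 10 and 3 at day 12, against 0 in growth. Kdr among them had its highest mean at day 4, at 8.88 ± 0.68. Of the 4 smooth muscle markers 2 were above the cutoff at day 8 and 3 at days 10 and 12, against 2 to 3 in growth. Myh11 among them was below the cutoff on every array. The part of these markers in the Jag1 difference was not tested.

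**Figure D4:**
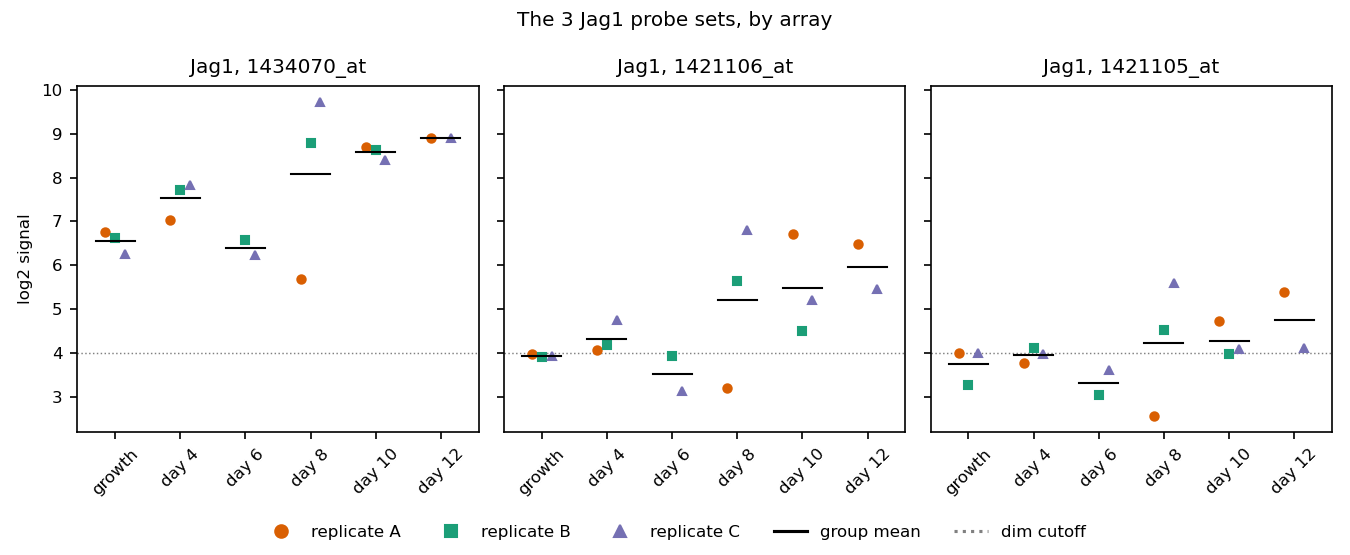
Log2 signal (vertical axis) of the 3 Jag1 probe sets on each array, by group in time order, with group means as bars and the dim cutoff of 4 as a dotted line. Day 8 replicate A is the lowest of its group in each panel, and the day 12 means are above the growth means in each.

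Among the receptors, Notch1 was the one with calls. Its values were 5.26, 5.31 and 5.32 in growth, 6.86, 6.81 and 7.24 at day 4, 5.53 and 5.78 at day 6, 5.11, 5.48 and 5.47 at day 8, 5.89, 5.85 and 5.84 at day 10 and 6.11 and 6.72 at day 12. The day 4 arrays were the highest 3 of the 16. At day 4 Notch1 was at 6.97 ± 0.24, against 5.30 ± 0.03 in growth (3.19-fold higher, 1.67 ± 0.18 log2, adjusted p = 5.49e-06). At day 6 it fell to 5.65 ± 0.18, against 6.97 ± 0.24 at day 4 (-1.32 ± 0.20 log2, adjusted p = 0.000942), a call lost with the mean of its probe sets (-0.97 log2). The day 8 mean of 5.35 ± 0.21 differed from growth by less than the SE, 0.06 ± 0.18 log2. The day 10 difference from growth was 0.57 ± 0.18 log2 (adjusted p = 0.0141), under the 1 log2 that a call needs. At day 12 Notch1 was 2.17-fold above growth (1.12 ± 0.20 log2, adjusted p = 0.000275), and without day 12 replicate C the difference was 0.81 log2 and no call. It was no call either after quantile normalization again (0.86 log2) or with the mean of its probe sets (0.73 log2).

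Notch2, the receptor whose probe set varied least among the members, was called in no comparison. Its group means were 8.24 ± 0.23 in growth, 8.66 ± 0.16 at day 4, 9.10 ± 0.11 at day 6, 8.87 at day 8, 8.38 at day 10 and 8.72 at day 12. The day 6 difference from growth was 0.86 ± 0.21 log2 (95% interval 0.40 to 1.32, adjusted p = 0.0052), under 1 log2, and the groups did not overlap. Notch3, a receptor known from smooth muscle of arteries, was at 5.67, 6.73 and 6.79 in growth, 7.19, 6.53 and 8.13 at day 4, 7.22 and 7.48 at day 6 and 5.87 to 7.36 on the later arrays. Its arrays overlapped between most groups. Its difference from growth was 0.89 ± 0.42 log2 at day 4 (adjusted p = 0.0974) and 0.95 ± 0.47 at day 6 (adjusted p = 0.117). Without day 4 replicate B the day 4 difference was 1.26 log2 and a call. The Notch3 probe set is of a kind (_s_at) that can bind several transcripts, and the other Notch3 probe set was below the cutoff on all arrays.

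Lfng, a fringe glycosyltransferase that modifies Notch receptors and alters their response to ligands, was dim on most arrays. It was at 3.67, 3.01 and 4.41 in growth and at 3.04, 5.08 and 5.08 at day 4, and the 10 later arrays lay between 2.80 and 3.56. It passed the dim filter on 3 arrays, day 4 replicates B and C and growth replicate C. The groups of day 4 and growth overlapped, with a difference of 0.70 ± 0.46 log2 (adjusted p = 0.227). Without day 4 replicate A the day 4 mean was 5.08 ± 0.01 (n = 2) and Lfng was called higher than growth by 1.38 ± 0.31 log2 (adjusted p = 0.00293). In that fit it was also lower at day 6 than at day 4, at least 2.11-fold since day 6 was dim (adjusted p = 0.000643). With all arrays it fell at day 12 to 2.95 ± 0.08, against 4.40 ± 1.18 at day 4 (at least 1.32-fold lower, adjusted p = 0.0286). That call was lost under 7 of 25 alternatives that gave a value. They were leaving out day 4 replicate B or C or day 12 replicate A or C (adjusted p = 0.0939 to 0.117), no filter on dim genes (adjusted p = 0.0705), values under 4 set to 4 (-0.72 log2) and only those groups in the fit (adjusted p = 0.122).

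The upstream sequence of Lfng is shown because it was the member with the most motif matches. It covers chr5:140607091-140607340 of GRCm38.p6 on the plus strand, with the matches in capitals.
Lfng: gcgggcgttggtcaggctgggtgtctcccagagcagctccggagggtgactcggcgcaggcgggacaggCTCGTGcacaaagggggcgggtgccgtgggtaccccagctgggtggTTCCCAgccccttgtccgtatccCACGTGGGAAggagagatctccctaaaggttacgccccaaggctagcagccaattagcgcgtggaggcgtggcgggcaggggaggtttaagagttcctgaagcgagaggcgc
It holds TGGGAA at 135 and 108 bases before the start, the second inside a CGTGGGAA at 110 bases, which overlaps a CACGTG at 112 bases, and a CACNAG at 181 bases. Of the 10 members, 8 were found in the table, with 9 starts, and Hes1 and Hey1 were not. Besides Lfng, CACNAG was found upstream of Notch1, Notch2 and Notch3, and the Rbpj motifs upstream of Hey2. A match is a string of letters, and binding was not measured.

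Hes1, a target gene in many tissues that codes for a repressor, was at 6.99, 6.48 and 7.27 in growth, 9.21, 8.93 and 9.70 at day 4, 8.10 and 7.79 at day 6, 7.26, 7.29 and 7.02 at day 8, 6.87, 6.31 and 6.88 at day 10 and 7.17 and 7.23 at day 12. The day 4 arrays were above all others and the day 6 arrays above all but those. At day 4 the mean was 9.28 ± 0.39, against 6.91 ± 0.40 in growth (5.17-fold higher, adjusted p = 3.39e-06). Unlike Dll1 and Dll3, Hes1 had its middle value of day 4 on replicate A. At day 6 it was 7.94 ± 0.22, which was 1.03 ± 0.27 log2 above growth (adjusted p = 0.00698) and 1.34 below day 4 (a difference of -1.34 ± 0.27 log2, adjusted p = 0.0063). The first of these calls was lost without growth replicate B (0.81 log2) or day 6 replicate B (0.87) and after quantile normalization again (0.91), and the second without day 6 replicate C (-1.19) or with only those groups fitted (adjusted p = 0.06). From day 8 on the differences from growth were between -0.23 and 0.29 log2, with adjusted p of 0.359 or more.

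Hey1, a repressor gene of the developing heart and vessels, was high in 2 separate periods. It was at 6.12, 5.39 and 5.40 in growth, 8.47, 8.55 and 8.58 at day 4, 6.29 and 6.19 at day 6, 6.04, 5.89 and 5.75 at day 8, 8.00, 7.06 and 6.94 at day 10 and 7.46 and 7.15 at day 12. The arrays of days 4, 10 and 12 were all above those of growth and days 6 and 8. At day 4 its mean was 8.53 ± 0.06, against 5.63 ± 0.42 in growth (7.47-fold higher, adjusted p = 1.09e-06). At day 6 it fell to 6.24 ± 0.07, against 8.53 ± 0.06 at day 4 (-2.29 ± 0.29 log2, adjusted p = 0.000221). At day 10 it rose to 7.34 ± 0.58, against 5.89 ± 0.14 at day 8 (1.44 ± 0.26 log2, adjusted p = 0.00264), and 3.25-fold above growth (adjusted p = 6.92e-05). With only days 8 and 10 fitted, the difference between them was no call (adjusted p = 0.0522). Day 8 replicate A lay with the other day 8 arrays here, and without it the day 10 difference from day 8 was 1.51 ± 0.29 log2 (adjusted p = 0.0067). At day 12 Hey1 was 3.18-fold above growth (adjusted p = 0.00021) and lower than at day 4 by -1.23 ± 0.29 log2 (adjusted p = 0.00306).

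Hey2, the related repressor gene of the ventricular myocardium, was not high at day 4. It was at 4.87, 4.66 and 4.32 in growth, 4.75, 4.81 and 5.04 at day 4, 7.03 and 7.19 at day 6, 7.05, 7.26 and 7.71 at day 8, 7.14, 6.63 and 6.68 at day 10 and 7.15 and 8.45 at day 12. Every array from day 6 on was above every array of growth and day 4. Its difference from growth was 0.25 ± 0.29 log2 at day 4 (95% interval -0.37 to 0.86, adjusted p = 0.522). At day 6 the mean was 7.11 ± 0.12, against 4.62 ± 0.28 in growth (5.62-fold higher, adjusted p = 3.58e-05) and against 4.86 ± 0.15 at day 4 (4.74-fold higher, adjusted p = 0.000588). It was 6.60-fold, 4.59-fold and 9.07-fold above growth at days 8, 10 and 12, with adjusted p of 1.86e-05 or less. Day 8 replicate A, with its low cardiac marker mean, was the lowest of its group in Hey2 and still above all growth and day 4 arrays. The cardiac marker mean at day 6 was 3.21 to 3.59, against 2.85 to 3.29 in growth. Of these 5 markers 1 was called higher than growth at day 6 and 0 lower. It was Tnnt2, at 6.21 and 5.60, against 2.95 to 3.03 on the growth arrays. The part of these markers in the Hey2 difference was not tested. Between days 10 and 12 the difference was 0.98 ± 0.32 log2 (adjusted p = 0.126), and without day 12 replicate A it was 1.63 log2 and a call.

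The upstream sequence of Hey2 is shown because it holds the longer Rbpj motif. It covers chr10:30842784-30843033 of GRCm38.p6 on the minus strand, and the capitals mark CGTGGGAA, read on the opposite strand, at 207 bases before the start.
Hey2: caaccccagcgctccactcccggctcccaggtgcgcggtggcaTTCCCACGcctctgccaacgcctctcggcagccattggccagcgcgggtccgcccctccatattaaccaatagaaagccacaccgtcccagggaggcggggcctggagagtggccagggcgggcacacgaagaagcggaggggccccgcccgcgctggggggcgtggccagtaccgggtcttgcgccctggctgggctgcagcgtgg
The TGGGAA inside it is the only other match in this window. Lfng and Hey2 were the 2 matched members with CGTGGGAA. Lfng had its highest mean at day 4, no call against growth, and Hey2 at day 12. The part of the motif in these values was not tested.

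Hey1 and Hey2 moved in opposite directions from day 4 to day 6, with a fall in Hey1 and a rise in Hey2, and their values over the 16 arrays correlated at -0.13. The highest correlations between members were 0.93 for Dll1 with Dll3, 0.89 for Notch1 with Hey1 and 0.87 for Dll1 with Hes1, and the lowest was -0.65 for Dll3 with Hey2. These describe 16 arrays that fall into 6 groups and share the group differences. Of all other genes tested, Dll3 was most like Pdgfrl (Pearson r = 0.990) and Tbx6 (0.979), and Dll1 most like Hoxb1 (0.977) and Car3 (0.976). Hes1 was most like Tapbp (0.972) and Erap1 (0.959), and Hey1 most like Psme1 and Mgat4a (0.895 each). Hey2 was most like Abtb2 (0.967) and Maf (0.962), Jag1 most like Msi2 (0.943) and Anxa3 (0.919), and Notch1 most like St6galnac4 (0.944) and Cish (0.896). For Lfng the nearest genes were Sema4g (0.922) and Cabp1 (0.905), for Notch2 Trim39 (0.840) and Sulf2 (0.832), and for Notch3 Mast3 (0.828) and Irf9 (0.825).

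By order of group means, Hes1 and Notch1 had day 4 at the top, and neither group's arrays overlapped those of the next, day 6 for Hes1 and day 12 for Notch1. Below day 6, the Hes1 groups of days 12 and 8, growth and day 10 each overlapped the next. For Hey1 the order was day 4, day 10, day 12, day 6, day 8 and growth, and only days 10 and 12, and day 8 and growth, overlapped as neighbours. For Hey2 days 12, 8, 6 and 10 overlapped as neighbours, day 10 and day 4 did not, and day 4 and growth did. For Jag1 day 12 and day 10 did not overlap, nor did day 4 and growth, while day 10, day 8 and day 4 did through the wide spread of day 8.

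A wider list of 44 Notch pathway genes was counted beside the members. Of these, 41 were on the table, 36 passed the dim filter, 5 did not (Dll4, Dlk2, Mfng, Maml2 and Heyl), and 3 were not analysed here. The numbers called higher and lower than growth were 7 and 3 at day 4, 5 and 3 at day 6, 5 and 4 at day 8, 6 and 4 at day 10 and 8 and 5 at day 12, and 15 genes were called on at least 1 day. In either direction these are 27.8%, 22.2%, 25%, 27.8% and 36.1% of the list, against 26.9%, 26.8%, 31%, 38% and 41.8% of all genes on the same days, so the list's counts were near or below those of all genes and are no result about the list. The median difference from growth over the 36 genes was between -0.08 and 0.22 log2. Rbpj, Maml1, Notch4, Jag2, Rfng, Pofut1 and Poglut1 were called on no day against growth.

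Among ligand genes, Dlk1, which codes for a non-canonical ligand without the usual Notch-binding domain, had the largest difference of the list. It was dim in growth, at 2.74 ± 0.14, and at day 4, at 2.80 ± 0.16, and was at least 17.1-fold above growth at day 6 and at least 771-fold at day 12 (adjusted p = 2.02e-07). Dner, a transmembrane protein known from neurons, was at 6.00 ± 0.60 at day 4, against 2.77 ± 0.04 in growth, a difference of at least 3.99-fold (adjusted p = 1.58e-06). Its call at day 12, at 3.97 ± 0.06, lay at the cutoff. Mib1, the ubiquitin ligase that lets a ligand-bearing cell signal, was higher at every day, at 8.93 ± 0.14 at day 4, against 6.74 ± 0.22 in growth (4.56-fold, adjusted p = 9.63e-07), but by less than 1 log2 from day 6 on when all its probe sets were averaged (0.59 to 0.89 log2). The related Neurl1a was at 5.49 ± 0.36 at day 4, against 3.52 ± 1.10 in growth (adjusted p = 0.000777, with no fold since growth averaged under the cutoff).

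Among the proteases that cut the receptor or its precursor, 3 of 8 tested were higher at every day and 0 lower. On each day these are 37.5% of the 8, against 13.3% to 22.5% of all genes called higher and 26.9% to 41.8% called in either direction. The share of all genes higher at every day was not counted, so the count is no result about the proteases. Adam10 was at 9.88 ± 0.42 at day 4 and 11.11 ± 0.26 at day 12, against 7.88 ± 0.63 in growth (4.01-fold and 9.38-fold higher, adjusted p = 0.000199 and 5.12e-06). Furin, which cuts the precursor in the Golgi, was 8.81-fold higher at day 12 (adjusted p = 1.48e-07). Aph1b, a subunit of gamma-secretase, was 6.19-fold higher at day 12 (adjusted p = 7.08e-05). Adam17, Psen2, Ncstn, Aph1a and Psenen were not called on any day.

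Among targets, Nrarp, which codes for a protein that limits Notch signalling, was called at day 4 alone. It was at 6.03 ± 0.93 at day 4, against 3.52 ± 0.40 in growth, a difference of at least 4.07-fold (adjusted p = 5.76e-05), and its means from day 6 on were 3.29 to 3.68. Outside day 4 no array was above 4.00, so Nrarp entered the test through the group in which it is high. Hes7, a gene of the somite clock, had a mean of 5.39 at day 4, against 3.57 in growth, a difference of 1.82 log2 (adjusted p = 0.074). Hes5, a target best known in neural progenitors, was lower at days 8, 10 and 12 by -1.57, -1.02 and -1.24 log2, and without growth replicate A the last 2 differences were -0.58 and -0.80 and no calls. These 2 calls were lost under several other alternatives too, among them no filter on dim genes (adjusted p = 0.0802 and 0.057) and array weights (-0.72 and -0.93 log2). The day 8 call was lost with the mean of its probe sets (-0.97 log2) and with only those groups fitted (adjusted p = 0.0536). Kat2b, an acetyltransferase of the coactivator complex, was lower at days 4, 6 and 8, by -1.72, -2.30 and -1.54 log2, the last of them no call with the mean of its probe sets (-0.99 log2).

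The Deltex genes Dtx1 and Dtx4, which code for ubiquitin ligases that act on Notch, were lower at every day, while Dtx2 and Dtx3 were called on no day. They were the 2 called of 9 negative regulators tested, where 12.8% to 19.4% of all genes were lower on single days. Dtx1 was dim at all 5 times, with means between 2.09 and 2.30, against 7.65 ± 0.16 in growth, and so at least 12.5-fold lower at each (adjusted p = 2.42e-11 or less). It entered the test through growth, the group in which it is high. Dtx4 was at 4.94 ± 0.37 at day 4, against 6.86 ± 0.10 in growth (-1.92 ± 0.20 log2, adjusted p = 4.43e-06). Of the ligand-modifying ubiquitin ligases, Mib2 was lower at day 12 by -1.50 log2, and Neurl1a was called lower at days 10 and 12, where growth averaged under the cutoff, so that no fold is given. Neurl1b was called higher at days 10 and 12, at least 1.67-fold and at least 2.15-fold, since growth was dim. Hes6, which codes for a Hes protein that opposes Hes1, was higher at day 12 by 1.14 log2. Without growth replicate B neither Neurl1a difference was a call (adjusted p = 0.0599 and 0.0928), nor that of Hes6 (0.90 log2), and without day 12 replicate C that of Neurl1b at day 12 was none (adjusted p = 0.0601). With values under 4 set to 4, the calls of Neurl1a at both days, Neurl1b at day 10 and Dner at day 12 were lost (-0.24, -0.24, 0.74 and 0.01 log2).

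**Figure D5:**
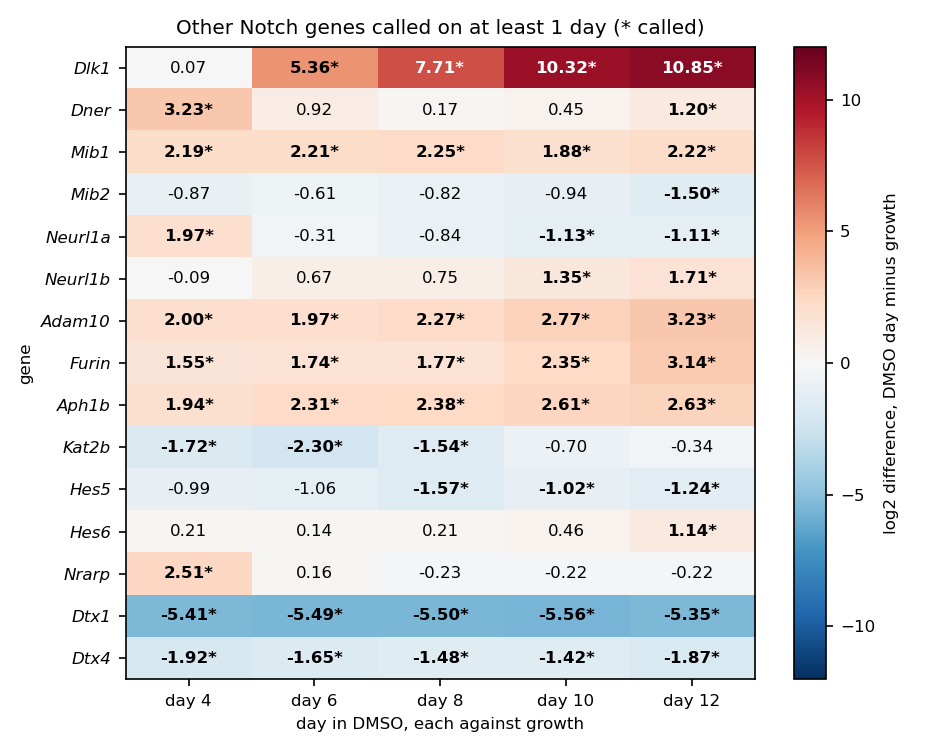
Log2 difference between a DMSO day (columns) and growth for the 15 genes of the wider Notch list called on at least 1 day (rows), with calls in bold and starred. Mib1, Adam10, Furin and Aph1b are positive and starred at all 5 days, and Dtx1 and Dtx4 are negative and starred at all 5. Differences from a dim group are fitted values and not bounds.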

How the data were processed

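RNA of 16 P19CL6 cultures was measured on Affymetrix mouse arrays, 1 per culture. The log2 values were made by the authors with GCRMA, which corrects background by probe sequence, normalizes by quantiles and summarizes probe sets, per the labels; software version and base of the logarithm are not given in the sources used here, and base 2 was read from the range of the values, 0.86 to 15.9. They were used as deposited. Of 45101 probe sets, 932 name several genes (no member among them) and 9160 none, and these were left out. Each of 18193 genes kept its probe set with the highest mean, and 10756 genes above log2 4 on at least 2 arrays were tested. 1 mean per group was fitted with limma 3.58.1 in R 4.3.3 (lmFit, eBayes) and 10 contrasts were drawn, with Benjamini-Hochberg adjustment over all genes of a contrast. The p-values measure the spread between cultures that the design text calls independent. Where all arrays of a group were under 4, a fold is given as at least the brighter mean over 4. A gene of the wider list is named where called against growth (up to 4 a role, by range of group means); the genes most like a member are the 2 with the highest Pearson correlation. Hes7, the uncalled genes, Tbx6 and Msgn1 are outside that rule and were chosen after their values were seen. The fit was tested on simulated data. Members, lists and tests were chosen with earlier results of these data known.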

Additional observations from a re-analysis of the deposited data

How the results depend on the processing

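Each result was recomputed under 27 alternatives, 16 of them leaving out 1 array. Of the 28 calls of members, 19 were kept under all of them, 9 were lost under at least 1, and 0 changed sign. Of the 72 differences not called, 14 became calls under at least 1. Some of these 72 changed sign, such as that of Jag1 at day 10 against day 8, which ran from -0.68 to 1.34 log2. Of 52 calls of 17 other genes, an alternative set added after seeing the data, 37 were kept throughout and 0 changed sign. Members called at day 6 against growth were 1 after quantile normalization again, against 2. At day 8 against growth they were 3 with array weights and 2 with only the groups compared in the fit, against 1. Between days 6 and 8 they were 2 with array weights, against 0, and between days 8 and 10 they were 0 with only those groups fitted, against 1. Over all genes, the number called between days 6 and 8 was 2, and was 1 with no filter on dim genes, 9 after quantile normalization, 1 with a common median, 4 with values under 4 set to 4, 753 with array weights, 14 with the replicate block and 0 with only those groups fitted. The number between days 10 and 12 was 319, and was 135 with a filter at log2 6 and 116 with only those groups fitted. That fit also gave 418 genes from day 4 to day 6, against 657, and 368 from day 8 to day 10, against 840. Leaving out 1 array at a time gave 1 to 3 members at day 6, 1 to 2 at day 8 and 2 to 5 at day 12 against growth, 0 to 1 between days 6 and 8 and 0 to 1 between days 10 and 12. Over all genes it gave 309 to 793 from day 4 to day 6, 1 to 616 from day 6 to day 8, the highest without day 8 replicate A, and 142 to 464 from day 10 to day 12. Some of these fits hold fewer genes or arrays, and the causes of the changes were not tested. The replicate letter as a block lost 0 calls of members and added 1, Lfng at day 6 against day 4 (adjusted p = 0.0451). Deviations of same-letter arrays correlated at -0.21 to 0.33, above 0.1 in 13 of 35 pairs, and those of arrays with different letters were not compared. The letters were not taken as pairing the cultures because no label says that they do. Whether arrays of a letter share an effect was not tested. Without probe sets ending in _x_at or _s_at, Notch3 has no value, and the log2 6 filter drops Lfng. Signal near background limits what the values of Dll1, Dll3 and Lfng show outside day 4.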
